A study of Mus musculus with 24 samples.

Results

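Retinal pigment epithelium (RPE) of mice in which the ciliary gene Ift20 was floxed was compared with control RPE at postnatal day 29 (P29), using 4 mutant and 4 control libraries out of 24. These 8 libraries were chosen by the genotype and age in their labels, and all 12303 genes with enough counts in the series were tested. The other 16 libraries cover the same genotypes at postnatal day 11 (P11) and at 3 months (3M). They are used below to ask whether an effect at P29 differed from that at another age. They also entered the filter, the scaling and the estimate of spread behind every P29 p-value. All control animals carried the Dct-Cre driver, and mutant animals carried the same driver with floxed Ift20, on a mixed background strain. No source used here gives the Ift20 alleles of the controls, the sex of the animals or how many animals a library came from. RNA came from isolated, untreated RPE cells, and each library carries a biological replicate number in its label. The p-values below measure the spread between libraries of the same group, estimated over all 24 libraries. No source used here says whether the libraries of a group came from separate animals. The p-values may therefore not measure the spread between animals.

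The RPE is a sheet of pigmented cells between the photoreceptors and the choroid. It regenerates the visual chromophore, takes up shed outer segment tips and moves ions, water and nutrients to and from the retina. The primary cilium is an antenna of the cell surface that is built by intraflagellar transport, the movement of protein trains along the ciliary microtubules. IFT20 is a subunit of the IFT-B train that also sits at the Golgi, where it helps to sort membrane proteins to the cilium. The Dct promoter that drives the recombinase is active in pigment cells, of which the RPE is 1 kind. Cells in the preparation that never expressed Dct would keep the gene.

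Mutant RPE at P29 held more RNA of lens crystallins and of rod photoreceptor genes than control RPE, and less RNA of visual cycle enzymes and immediate early genes. Lens RNA rose the most as a fold, from a summed 617 to 685 CPM (the count of a gene scaled to a common library size) in the controls to 1998 to 2140 CPM in the mutants. Most of the control sum came from alpha crystallins (262 CPM) and regulators of lens genes (317 CPM), which include genes also expressed outside the lens. Beta and gamma crystallins averaged 12.6 and 26.1 CPM in the controls and 430 and 589 CPM in the mutants. The falls were smaller: among the visual cycle enzymes and immediate early genes that passed the test, levels fell by 19.2% (Rdh5) to 41.0% (Fosb). Of the 12303 genes tested, 350 (2.84%) were called at an adjusted p under 0.05 in the quasi-likelihood test of edgeR, 201 higher in the mutants (1.63%) and 149 lower (1.21%). The median log2 fold change of the 201 rises was 0.73 and that of the 149 falls was -0.47, while the median over all tested genes was -0.000732. Of the rises, 77 had a control mean of at least 100 CPM and 44 one under 5 CPM, and of the falls 116 and 1 did. In 954 of the tested genes (7.75%) the 4 mutant and 4 control libraries did not overlap, among them 182 of the rises and 136 of the falls. Of the calls, 107 rises and 69 falls were also called with each of the 8 libraries left out in turn. Without the genes on the X and Y chromosomes, 197 rises and 140 falls were called.

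**Figure D1:**
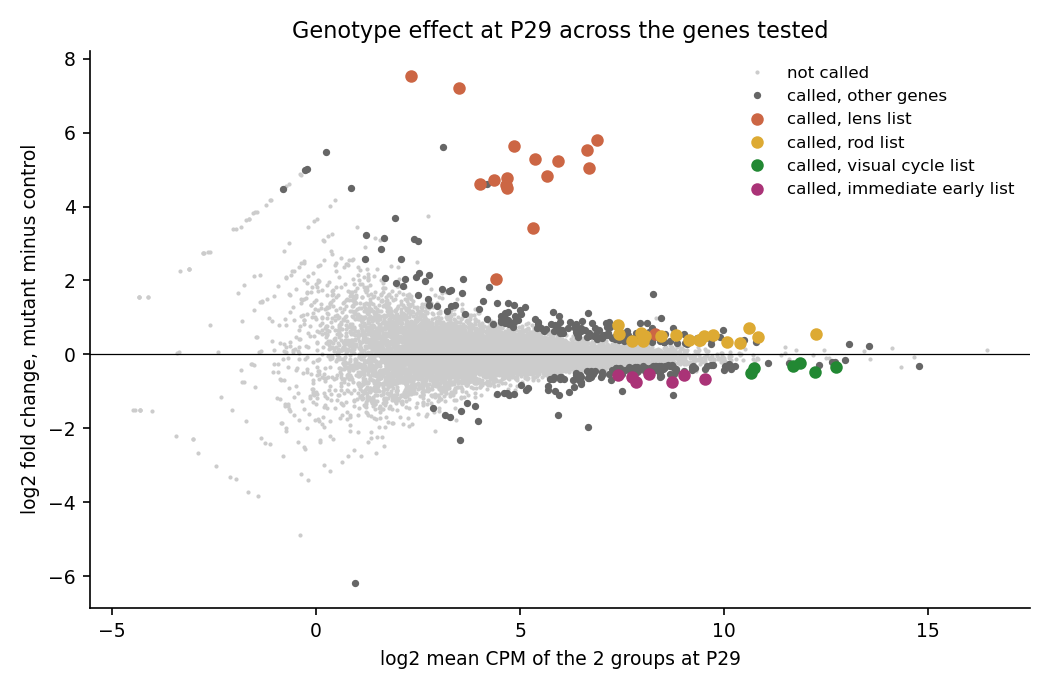
Log2 fold change of mutant over control RPE at P29 (vertical axis) against the log2 of the mean CPM of the 2 groups (horizontal axis), 1 point per gene tested, with coloured points for called members of 4 gene lists. The called lens genes other than Cryab lie at 2.04 or above, the rod genes form a band near 0.5, and the called visual cycle and immediate early genes lie below 0.

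The 8 libraries held between 2009047 and 2792369 gene counts and 13631 to 14114 genes with a count, so 3 counts corresponded to 1.07 to 1.49 CPM. Reads aligned to several places made up 31.3% ± 0.438 of a control library and 32.4% ± 0.150 of a mutant library (SD, n = 4), an exact two-sided permutation p of 0.0286, the smallest that 70 assignments allow, and 0.114 after Benjamini-Hochberg adjustment over 6 measures. Mitochondrial RNA made up 5.05% ± 0.305 and 5.84% ± 0.530 of the gene counts (exact permutation p = 0.0571, adjusted 0.114). As a check of the label, the 20 genes of an RPE identity list, among them Rpe65, Ttr and Dct, summed to 6.61% of the counts in control libraries, against 1.53% for 22 rod genes. Best1, the chloride channel of the RPE, had too few counts to be tested. Every library of both groups held transcripts of Xist, which is transcribed from the inactive X chromosome of females, and of Y genes. Xist stood at 138, 153, 153 and 151 CPM in the controls and at 494, 410, 478 and 477 CPM in the mutants, and Ddx3y at 155, 182, 153 and 156 against 37.3, 43.7, 39.7 and 45.5 CPM. The groups did not overlap in either gene, so sex-linked RNA moved with genotype and an effect of sex composition cannot be told apart from that of the mutation in these 8 libraries.

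Ift20 itself, on chromosome 11 of GRCm38 at chr11:78536361-78541737, plus strand, had 121, 84.9, 124 and 102 CPM in the controls and 70.1, 57.9, 88.8 and 68.6 CPM in the mutants. The highest mutant library lay above the lowest control, so the groups overlapped. The log2 fold change was -0.60 (SE 0.15, adjusted p = 0.0112). The call was lost without control 1 (adjusted p = 0.0711), control 3 (0.0750) or mutant 2 (0.0962), with log2 fold changes between -0.73 and -0.51 over the 8 fits that left out a library. The counts come from the 3' ends of transcripts, and the sources used here do not say which exons were floxed, so tags that lie outside the deleted part would not show the deletion. Ift20 was the 1 gene that edgeR called in 4 lists of ciliary genes. Of 33 tested intraflagellar transport genes, Ift20 fell and the other 32 passed in neither direction, with a list median log2 fold change of 0.01. None of the 13 tested genes of the BBSome, the coat that carries membrane proteins out of cilia, passed (median 0.12), nor did any of 29 transition zone and basal body genes (median 0.07) or of 11 genes of Hedgehog signalling, a pathway that runs through the cilium (median 0.13). At an unadjusted p under 0.05 there were 3 BBSome, 5 transition zone and basal body genes and 1 Hedgehog gene. DESeq2 called 2 BBSome genes and voom 1, and both called 0 in the other 2 lists.

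Lens genes gave the largest rises. Crystallins are the soluble proteins that fill lens fiber cells and give the lens its refractive power, and the lens is not part of the RPE. Of 28 listed lens genes, 22 were tested and 17 rose, against the 1.63% of all genes that did, and none fell. The filter kept a gene with enough counts in as many libraries as a group holds, whichever group that was. Crygf averaged 0 CPM in P29 controls and 0.664 and 1.45 CPM in P11 controls and mutants, with none at 3M. Bfsp1 averaged 0.0922 CPM in P29 controls and at most 1.35 CPM in a P11 or 3M group. Such genes entered through the P29 mutants, which fixed their direction. The share and the median are therefore descriptions only. The median log2 fold change over the 22 was 4.66. Among the 17 were both alpha crystallins, all 6 beta crystallins, 6 of 7 tested gamma crystallins and 3 of 4 tested genes of fiber membranes and filaments. The 3 tested regulators of lens gene expression did not pass: Maf had a log2 fold change of -0.08, Prox1 of 0.79 and Hsf4 of -0.21. Maf is also expressed outside the lens and ran from 247 to 355 CPM over the 8 libraries. Foxe3, a transcription factor of the lens epithelium, had no count in any of the 8 libraries. In bulk libraries more cells of a type and more RNA per cell cannot be told apart.

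Promoter sequences are shown for 4 of the lens genes that rose, 1 each from the alpha, beta and gamma crystallins and from the fiber membrane, because a shared lens promoter element is known to bind Maf proteins. Each runs from 250 bases before to 50 bases after the RefSeq start in GRCm38.p6, on the gene's strand. Capitals mark the Maf core TGCTGA, or its reverse complement in Crygs, and the letters TATAAA of the TATA box, which in Mip span the RefSeq start rather than lie before it.
Cryba1, chr11:77725244-77725543, minus strand: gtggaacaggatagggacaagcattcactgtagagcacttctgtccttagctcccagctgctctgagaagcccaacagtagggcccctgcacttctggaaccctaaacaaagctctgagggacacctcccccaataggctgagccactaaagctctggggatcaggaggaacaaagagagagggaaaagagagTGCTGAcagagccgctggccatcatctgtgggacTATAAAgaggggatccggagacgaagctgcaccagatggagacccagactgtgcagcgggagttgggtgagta
Cryaa, chr17:31677681-31677980, plus strand: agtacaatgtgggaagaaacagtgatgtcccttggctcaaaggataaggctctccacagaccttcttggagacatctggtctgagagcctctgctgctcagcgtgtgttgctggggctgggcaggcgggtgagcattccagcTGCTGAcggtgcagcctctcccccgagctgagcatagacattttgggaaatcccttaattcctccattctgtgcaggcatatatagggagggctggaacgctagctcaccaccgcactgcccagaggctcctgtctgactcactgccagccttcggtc
Crygs, chr16:22811361-22811660, minus strand: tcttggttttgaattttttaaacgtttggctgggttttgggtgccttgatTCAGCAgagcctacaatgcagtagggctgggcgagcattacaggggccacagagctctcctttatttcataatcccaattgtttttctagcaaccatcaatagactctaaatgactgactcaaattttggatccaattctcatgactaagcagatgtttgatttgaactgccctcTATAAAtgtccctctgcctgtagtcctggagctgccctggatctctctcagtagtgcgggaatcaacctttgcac
Mip, chr10:128225560-128225859, plus strand: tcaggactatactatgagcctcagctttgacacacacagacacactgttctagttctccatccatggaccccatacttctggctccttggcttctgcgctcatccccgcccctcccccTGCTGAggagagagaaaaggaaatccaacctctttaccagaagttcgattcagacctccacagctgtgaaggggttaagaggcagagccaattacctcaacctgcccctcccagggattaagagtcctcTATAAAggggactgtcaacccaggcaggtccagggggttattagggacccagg
Of the 17 lens genes that rose, 16 had a window in the RefSeq table and Cryab is named only. The core TGCTGA, searched on both strands, was present in 11 of these 16 windows, against 19.5% of all 32851 windows of 300 bases. The windows of Cryba1, Cryaa, Crygs and Mip all hold it, while those of Crybb2, Crygb, Crygd, Cryge and Crygf do not. TATAAA, also searched on both strands, was present in 5 of the 16, against 13.6% of all windows. The AP-1 motif TGANTCA was in 3 of the 16, against 7.81%. Such a match is a description of letters.

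Cryba1, which encodes a beta crystallin of lens fibers, had 5, 5.98, 3.32 and 1.98 CPM in the controls and 170, 225, 191 and 196 CPM in the mutants. All 4 mutant libraries were far above all 4 controls. Its log2 fold change was 5.54 (SE 0.28, adjusted p = 1.13e-30). Cryaa, the alpha crystallin largely restricted to the lens, had 1.78, 2.79, 9.22 and 11.4 CPM in the controls and 247, 191, 184 and 183 CPM in the mutants (log2 fold change 5.03, SE 0.34, adjusted p = 1.93e-14). Cryab, the alpha crystallin that many tissues make as a small heat shock protein, was already at 278, 259, 255 and 233 CPM in the controls and reached 390, 417, 334 and 361 CPM (0.55, SE 0.09, adjusted p = 6.05e-06). The groups overlapped in neither alpha crystallin. Crygb, a gamma crystallin of the lens core, went from 5, 9.16, 0.737 and 0.991 CPM to 255, 217, 205 and 247 CPM. Crygs, the gamma crystallin of the outer lens, went from 3.21, 3.98, 0.737 and 5.94 CPM to 90.4, 115, 97.4 and 86.2 CPM. Mip, the water channel of lens fibers, had 8.92, 5.98, 3.69 and 8.42 CPM in the controls and 63.6, 71.3, 91.8 and 63.9 CPM in the mutants (3.43, SE 0.37, adjusted p = 1.58e-11). Its transcribed end overlaps a gene on the other strand, and no source used here says whether strand was used in counting.

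Bfsp1 and Crygf were all but absent from the controls. Bfsp1, a protein of the beaded filament that is particular to lens fibers, had 1 count over the 4 control libraries and 213 over the mutants, a depth-scaled ratio of 223 (95% exact interval 39.6 to 8840, counting error only). Crygf had 0 control counts and 95 mutant counts, at least 33.1-fold higher against a floor of 3 counts over the group. Its 4 mutant libraries stood at 7.84, 8.27, 15.8 and 7.84 CPM. Bfsp2, the partner of Bfsp1 in the filament, was at 10.7, 12, 15.1 and 15.9 CPM in the controls and 24, 13, 11.5 and 12.1 CPM in the mutants, groups that overlapped (0.18, adjusted p = 0.926). Gamma crystallin genes are near copies of each other, so the split of reads among Crygb, Crygc, Crygd, Cryge and Crygf is uncertain. As a sum, the gamma crystallins went from 26.1 to 589 CPM, the beta crystallins from 12.6 to 430 CPM and the alpha crystallins from 262 to 576 CPM. All 17 lens genes kept their calls with each of the 8 libraries left out.

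**Figure D2:**
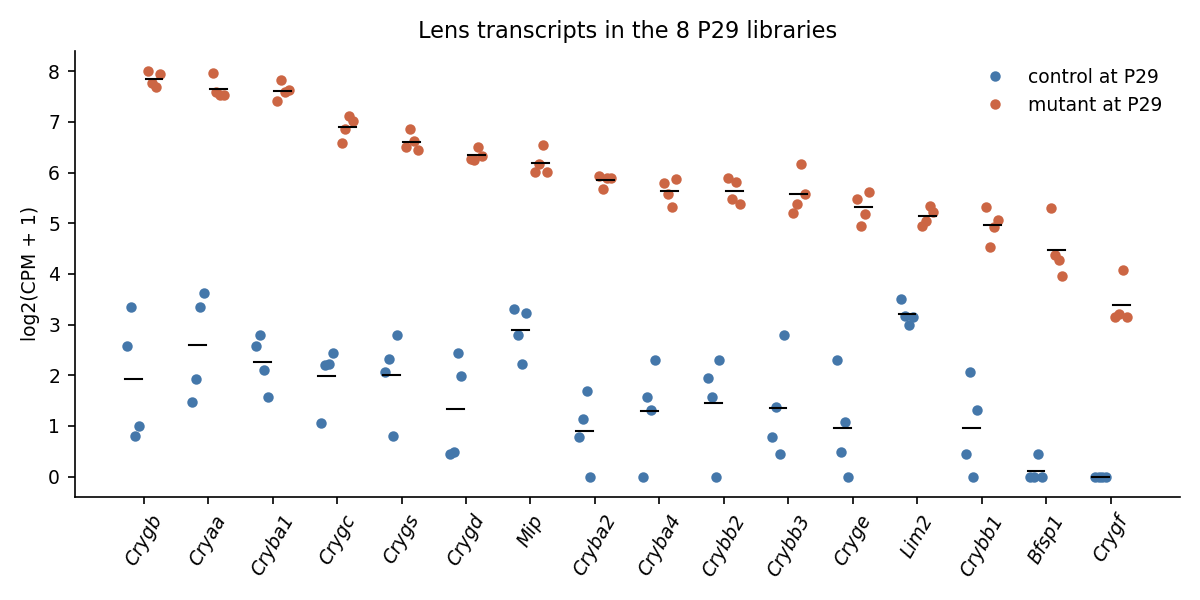
Levels of 16 lens transcripts in the 8 P29 libraries, as log2(CPM + 1) on the vertical axis, with 1 point per library and a bar at the group mean. In each of the 16 genes all 4 mutant libraries lie above all 4 control libraries, and Crygf is at 0 in every control.

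The excess was found at P29 and not at P11. At P11 none of the 22 tested lens genes was higher in mutants (background 3.26%) and 6 were lower (background 3.67%). Cryba1 averaged 22.5 ± 6.75 CPM in P11 controls and 8.35 ± 2.84 in P11 mutants (SD, n = 4), and the P29 effect exceeded the P11 effect by 6.94 on the log2 scale (SE 0.40, adjusted p = 4.64e-27). For Crygs the difference of effects was 6.45, for Cryaa 6.13 and for Mip 5.06. In the 3M controls Cryba1 had no count, and it averaged 0.442 CPM in 3M mutants, below the floor of a single library. None of the 22 lens genes was called at 3M in either direction (backgrounds 2.13% and 0.48%). The difference between the P29 and 3M effects did not pass for Cryba1 (2.38, SE 5.93, adjusted p = 0.964), with those few counts, but did for Mip (4.47, SE 0.77, adjusted p = 6.98e-05). Over all genes the P29 effect differed from the P11 effect in 323 (2.63%) and from the 3M effect in 105 (0.853%).

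Summed rod photoreceptor RNA was higher in the mutants. Of 22 rod genes, 18 rose, against 1.63% of all genes, and none fell, with a median log2 fold change of 0.48. Their summed level was 14951 to 15675 CPM in the controls and 20302 to 21412 CPM in the mutants, groups that did not overlap, or 1.53% and 2.08% of the counts. Gnat1, the transducin subunit of rods, stood at 1581, 1462, 1488 and 1574 CPM in the controls and 2172, 2203, 2107 and 2040 CPM in the mutants (0.48, SE 0.06, adjusted p = 9.53e-09). Sag, the arrestin that ends the rod response, stood at 1228, 1069, 1216 and 1226 CPM against 2015, 2038, 1821 and 1848 CPM (0.70, SE 0.06, adjusted p = 1.64e-17). For both genes every mutant library was above every control. Nrl and Nr2e3, the transcription factors that set rod fate, rose by 0.40 and 0.59 on the log2 scale, as did Prph2 (0.52), which shapes the outer segment disc. Rods adjoin the RPE, which takes up their tips.

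Rod genes were also higher in mutants at the other ages, 7 of the 22 at P11 (background 3.26%, list median 0.21) and 19 at 3M (background 2.13%, list median 0.75). For Sag the P29 effect was larger than that at P11 by 0.34 (SE 0.08, adjusted p = 0.00517) and smaller than that at 3M by 0.42 (P29 minus 3M -0.42, SE 0.08, adjusted p = 0.00066).

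Markers of other cells were measured in the same way, where 1.63% of all tested genes rose and 1.21% fell. Of 11 tested cone genes 1 rose, Gnb3, a transducin subunit of cones (14.6, 19.9, 23.2 and 6.93 CPM against 40.1, 31.5, 58.1 and 36.8 CPM, log2 fold change 1.33, adjusted p = 6.67e-06). The cone list median was 0.43, near that of the rod list, with 10 members above 0 and 1 below. Summed cone RNA was 192 to 219 CPM in the controls and 255 to 287 CPM in the mutants, groups that did not overlap. Of 18 tested genes of inner retinal neurons 2 rose, Nefl and Grm6, but Nefl lost its call without control 4 (adjusted p = 0.0534) and Grm6 without any of 6 libraries, with an adjusted p of up to 0.290 without mutant 4. The median of that list was 0.43, with 13 members above 0 and 5 below. Its summed level averaged 796 CPM in the controls and 779 CPM in the mutants. Amacrine cell genes, which made up most of that sum, averaged 540 and 471 CPM. Bipolar cell genes averaged 217 and 239 CPM and ganglion cell genes 38.8 and 69.2 CPM. Of 13 endothelial genes 1 rose, Esam, an adhesion molecule of vessels (2.19, adjusted p = 0.00470). The endothelial list median was 0.62, with 10 members above 0 and 3 below. Summed endothelial RNA was 88.2 to 117 CPM in the controls and 136 to 154 CPM in the mutants, groups that did not overlap. Of 6 tested erythrocyte genes 4 rose, the globins Hbb-bs, Hbb-bt, Hba-a1 and Hba-a2, by 0.33 to 0.47 on the log2 scale. Summed erythrocyte RNA was 2570 to 3202 CPM in the controls and 3760 to 4037 CPM in the mutants. None of 11 microglia and macrophage genes, 11 fibroblast genes, 8 pericyte genes or 6 choroidal melanocyte genes passed in edgeR, with medians of -0.31, -0.13, 0.10 and -0.12 and with 1, 1, 0 and 1 genes at an unadjusted p under 0.05. DESeq2 and voom each called 1 microglia and macrophage gene and 0 of the other 3 lists. The part of lens, rod or blood RNA in the other differences was not tested.

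Of 8 listed keratins of surface epithelia, 3 had enough counts to be tested, and these 3 rose from almost nothing. All 8 keratins together averaged 2.98 CPM in the P29 controls, too little for those libraries to bring any of them into the test. A keratin that entered through the P29 mutants could only rise, so the number of rises is a description and not a test. Krt14 and Krt12 were among those not tested. Krt15, a keratin of basal epithelial cells, was at 3.21, 1.2, 0.369 and 0.495 CPM in the controls and 44.3, 30.3, 21.4 and 43.9 CPM in the mutants (4.62, SE 0.59, adjusted p = 2.79e-09). Krt5, the basal keratin of the cornea and skin, had 3 counts over the controls and 164 over the mutants, a ratio of 57.2 (95% exact interval 19.2 to 280). Of 7 tested surface epithelium genes 3 rose, all of them these keratins, against 1.63% of all genes. The same limit of the filter holds for that share. Dsg1a and Lypd3 had no count in any of the 8 libraries. Krt6a, the other that rose, lost its call in 6 of the 8 fits that left out a library (adjusted p up to 0.134 in edgeR). The same list held 3 higher genes at P11 and 3 at 3M, and the Krt15 effect at those ages was 4.36 and 7.38 on the log2 scale.

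**Figure D3:**
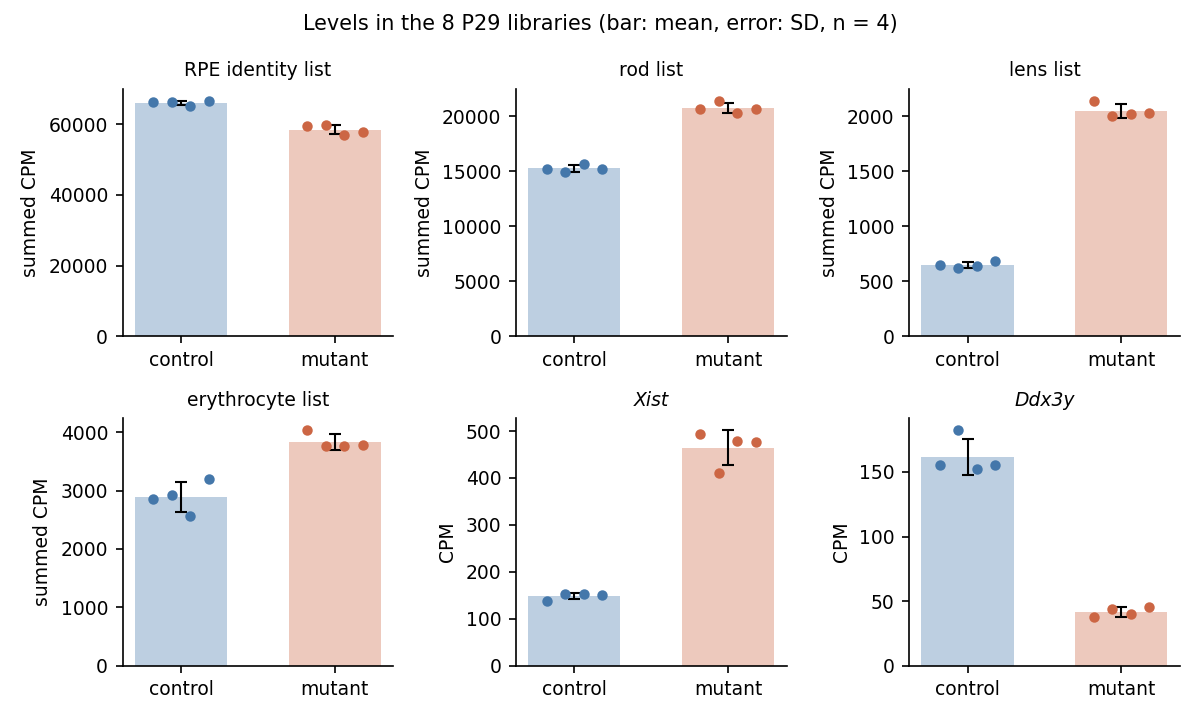
Summed CPM of 4 marker lists and CPM of Xist and Ddx3y in the 8 P29 libraries, with 1 point per library, bars at the mean and error bars of 1 SD (n = 4). Mutant libraries lie above controls for rod, lens and erythrocyte RNA and Xist, and below them for RPE identity RNA and Ddx3y, with no overlap in any panel.

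Visual cycle genes were lower in the mutants. The visual cycle turns the bleached chromophore, all-trans retinal, back into the 11-cis form in the RPE. Of 14 genes, all tested, 6 fell, against 1.21% of all genes, and none rose. The list median was -0.18. Of the 7 enzymes 5 fell. Summed, the list stood at 54732 to 55783 CPM in the controls and 46911 to 49326 CPM in the mutants, and the groups did not overlap.

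Rpe65, the isomerase that makes 11-cis retinol, had 7593, 7831, 7390 and 7854 CPM in the controls and 6118, 6093, 5898 and 6038 CPM in the mutants. Its log2 fold change was -0.34 (SE 0.04, adjusted p = 1.59e-09). Lrat, which esterifies retinol to supply Rpe65 with its substrate, had 1828, 1867, 1987 and 1863 CPM against 1379, 1344, 1325 and 1297 CPM (-0.50, SE 0.06, adjusted p = 2.24e-09). Every mutant library was below every control for both genes. Rgr, an opsin of the RPE that acts as a retinal isomerase in light, had 5472, 5491, 5723 and 5396 CPM against 3903, 4136, 3975 and 3858 CPM (-0.48, SE 0.05, adjusted p = 1.69e-14). The retinol dehydrogenases Rdh5 and Rdh10 fell by 0.31 and 0.38 on the log2 scale. Rlbp1, the carrier of 11-cis retinoids, did not pass (-0.14, adjusted p = 0.192), nor did Stra6, the receptor that takes retinol up from blood (-0.25, adjusted p = 0.123), or Ttr, the blood carrier that is the most abundant gene of the list (-0.06, adjusted p = 0.480). All 6 falls were called with each library left out in turn.

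At P11, 7 of the 14 visual cycle genes were lower in mutants (background 3.67%), and 2 were at 3M (background 0.48%). The Rpe65 effects at P11 and 3M were -0.32 and -0.15, and neither differed from that at P29 (adjusted p = 0.935 and 0.121). Rgr differed from both ages: its effect was -0.21 at P11 and 0.05 at 3M, and the P29 effect lay below the latter by 0.52 (P29 minus 3M -0.52, SE 0.06, adjusted p = 2.81e-09). Of 22 tested transport genes of the RPE, 6 fell, against 1.21% of all genes, and none rose. The median was -0.17, and 5 members lay above 0. Kcnj13, the apical potassium channel, had 712, 694, 645 and 647 CPM in the controls and 514, 513, 514 and 478 CPM in the mutants (-0.42, SE 0.08, adjusted p = 3.75e-05), although its end overlaps a gene on the other strand. Slc2a1, the glucose transporter of the RPE, had 880, 808, 903 and 789 CPM against 629, 753, 654 and 678 CPM (-0.32, SE 0.07, adjusted p = 0.00221). Slco1c1, a thyroid hormone transporter, fell by 0.65 and Slc4a5, a bicarbonate transporter, by 0.31 on the log2 scale. Kcnj13, Slc2a1, Slco1c1 and Slc4a5 kept their calls with each library left out.

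Not all RPE genes fell. Of 16 pigment genes 3 rose (Mlana, Pmel and Tyrp1), against 1.63% of all genes, and none fell, with a median of -0.05. Without mutant 1 the count was 1, since Pmel (adjusted p = 0.0603) and Tyrp1 (0.0596) lost their calls. Pmel also lost it without control 3 (0.0616) or mutant 4 (0.0521), and Tyrp1 without control 2 (0.0695). Mlana, a melanosome protein, rose from 62.8, 58.2, 80.4 and 64.4 CPM to 120, 107, 92.2 and 105 CPM (0.67, adjusted p = 0.00246). Dct, whose promoter drives the recombinase, and Tyr, the first enzyme of melanin synthesis, did not pass (-0.03 and -0.08). Among transcription factors of the RPE and eye, Sox9, known to activate visual cycle genes in the RPE, fell (823, 865, 775 and 862 CPM against 633, 648, 626 and 637 CPM, -0.39, adjusted p = 5.87e-05), while Otx2 (-0.15, adjusted p = 0.264) and Mitf (-0.21, adjusted p = 0.506) did not pass. Crx, a photoreceptor factor, rose by 0.66 (adjusted p = 5.14e-05). Ctsd, the main aspartic protease of lysosomes, fell by 0.22, and shares its transcribed end with another gene on the same strand.

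Immediate early genes, which are induced within minutes of a stimulus and need no new protein, were lower in the mutants. Of 21 tested genes 7 fell, against 1.21% of all genes, and none rose, with a median of -0.27. Of the 6 AP-1 subunits, the Fos and Jun proteins that pair on DNA, 4 fell. Fosb had 485, 560, 572 and 495 CPM in the controls and 319, 288, 351 and 288 CPM in the mutants (-0.76, SE 0.10, adjusted p = 1.61e-08). Jun had 607, 655, 639 and 562 CPM against 395, 436, 389 and 437 CPM (-0.57, SE 0.09, adjusted p = 1.22e-06). The groups were apart in both genes. Jund fell by 0.63 and Junb by 0.54, but Junb lost its call without mutant 2 (adjusted p = 0.0573), mutant 3 (0.0614) or mutant 4 (0.0513), and the ends of both overlap genes on the other strand. Fos, with 734, 659, 909 and 675 CPM against 548, 609, 717 and 596 CPM, overlapped between groups and did not pass (-0.27, adjusted p = 0.526).

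Of the zinc finger genes, Egr1, a factor induced by growth factors and activity, had 915, 837, 927 and 951 CPM in the controls and 561, 562, 603 and 573 CPM in the mutants (-0.66, SE 0.08, adjusted p = 9.37e-11). Klf4 had 292, 283, 291 and 285 CPM against 185, 140, 163 and 194 CPM (-0.76, SE 0.12, adjusted p = 4.14e-06). Btg2, an antiproliferative gene, fell by 0.57. Every mutant library was below every control in all 3 genes.

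Effects on several of these genes differed between ages. At P11, 17 of the 21 immediate early genes were lower in mutants (background 3.67%) and none higher. At 3M 2 were lower (background 0.48%) and 3 higher (background 2.13%). The Fosb effect was -1.61 at P11, -0.76 at P29 and 0.72 at 3M, and its P29 effect differed from both others (P29 minus P11 0.85, SE 0.16, adjusted p = 0.000204; P29 minus 3M -1.48, SE 0.15, adjusted p = 2.18e-12). For Klf4 the effects were -1.0, -0.76 and 0.97 in the order of age, and the P29 effect differed from that at 3M (-1.73, SE 0.18, adjusted p = 8.41e-12) but not from that at P11 (0.24, adjusted p = 0.645). The P29 Jun effect also differed from that at 3M (-0.91, adjusted p = 2.41e-07).

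**Figure D4:**
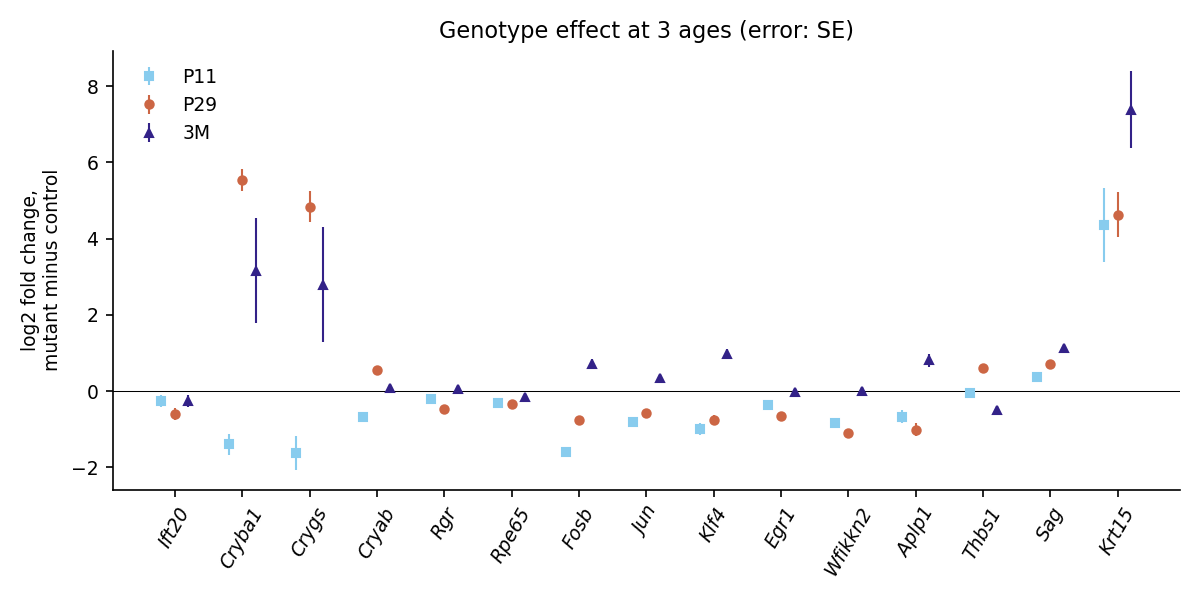
Genotype effect (log2 fold change, mutant minus control, vertical axis) of 15 genes at P11, P29 and 3M, with error bars of 1 SE. Cryba1 and Crygs are below 0 at P11 and near 5 at P29, Fosb and Klf4 are below 0 at P11 and P29 and above 0 at 3M, and Krt15 is above 0 at each age.

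Several signalling, matrix and metabolic lists held 1 to 3 called genes each, where 1.63% of all tested genes rose and 1.21% fell. Fzd4, a Wnt and norrin receptor, was the 1 of 22 Wnt genes that fell (504, 541, 417 and 472 CPM against 345, 337, 319 and 343 CPM, -0.52, adjusted p = 7.73e-06). Id2, an inhibitor of bHLH factors that BMP signals induce, was the 1 of 21 genes of the TGF-beta and BMP list that rose (328, 313, 292 and 285 CPM against 494, 475, 415 and 414 CPM, 0.56, adjusted p = 4.44e-07). Thbs1, a matrix glycoprotein, was the 1 of 22 genes of the epithelial-mesenchymal transition list that rose (0.61, adjusted p = 1.19e-06), and its P29 effect lay above that at 3M by 1.10 (SE 0.13, adjusted p = 2.81e-09). Of 21 basement membrane genes, Eln, which makes the elastic layer of Bruch's membrane, rose by 1.03, while Timp3 and Col18a1 fell by 0.22 and 0.41. The Timp3 end overlaps a gene on the other strand.

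Hspa5, the chaperone of the endoplasmic reticulum, rose by 0.28, the 1 rise among 17 tested genes of the unfolded protein and integrated stress list. The 1 fall in that list was Atf4 (-0.41, adjusted p = 0.0072 in edgeR), and the list median was -0.02. Atf4 lost its call without control 1 (0.0516) or mutant 4 (0.0693). Hk2, a hexokinase, had 64.6, 94.4, 109 and 123 CPM in the controls and 189, 158, 156 and 201 CPM in the mutants (0.85, adjusted p = 0.000161), 1 of 2 rises among 16 glycolysis genes. Among 26 genes of oxidative phosphorylation 3 rose, all encoded in the mitochondrial genome, with mt-Nd1 at 0.27 and mt-Co1 at 0.33. Hmgcs1, an early enzyme of cholesterol synthesis, fell by 0.53 and Apoe, the lipid carrier, by 0.20, among 3 falls in 22 genes of cholesterol and lipid handling. All 18 genes of interferon response and antigen presentation had log2 fold changes below 0, with a median of -0.48. In edgeR 1 passed, B2m (-0.28, adjusted p = 0.00987). The B2m call was lost without control 2 (0.0548), control 3 (0.104), mutant 2 (0.0504) or mutant 4 (0.0572). At an unadjusted p under 0.05 there were 7 of the 18, and DESeq2 called 2 and voom 4. The groups did not overlap in 6 of the 18, against 7.75% of all genes. None of 13 heat shock, 16 fatty acid oxidation, 22 antioxidant or 14 cell cycle genes passed in edgeR, and 2, 5, 5 and 0 had an unadjusted p under 0.05. DESeq2 called 0 in these 4 lists and voom 1, a heat shock gene.

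**Figure D5:**
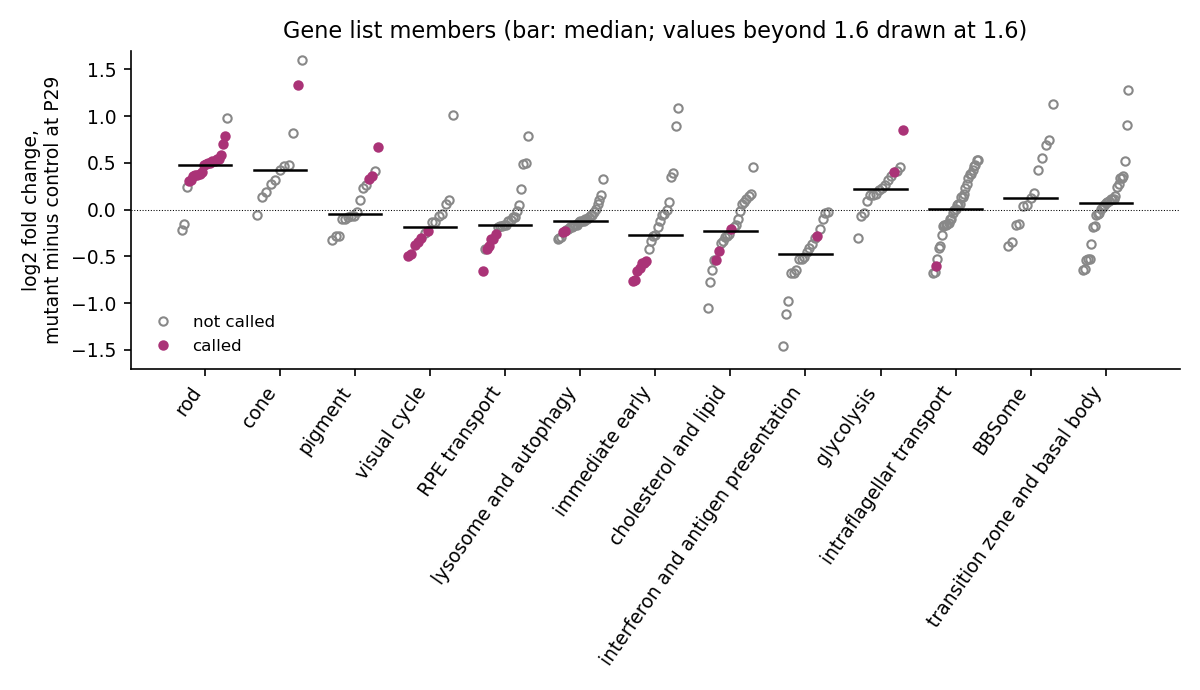
Log2 fold change at P29 (vertical axis) of each tested member of 13 gene lists, filled where called, with a bar at the list median. Rod members cluster near 0.48, most immediate early members and all interferon members lie below 0, and the 3 ciliary lists lie around 0.

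Some of the sharpest differences belonged to no list. Cox8b, a subunit of cytochrome c oxidase, rose from 262, 235, 236 and 214 CPM to 471, 428, 541 and 433 CPM (0.98, SE 0.10, adjusted p = 7.07e-12). Syt1, the calcium sensor of synaptic vesicles, rose from 201, 183, 208 and 199 CPM to 392, 344, 344 and 335 CPM (0.84, SE 0.09, adjusted p = 8.09e-12). Wfikkn2, a secreted protein that binds GDF8 and GDF11, fell from 561, 578, 559 and 630 CPM to 284, 266, 269 and 259 CPM (-1.11, SE 0.10, adjusted p = 3.79e-16). In each of these 3 genes the groups were apart by more than the spread within them. Pttg1, which encodes securin, fell from 75.3, 88.9, 73.4 and 99.6 CPM to 44.7, 35.5, 35.9 and 40.8 CPM (-1.10, adjusted p = 7.12e-08), whereas its P11 effect was 0.86. Ramp2, a partner of the calcitonin receptor-like receptor, fell by 0.98, and Serpine3 by 1.65. The Ramp2 end overlaps a gene on the same strand, and the Serpine3 end overlaps 1 on the other strand. Of the 15 largest falls by the naming rule, 6 kept their calls with each library left out, 3 of them the Y genes Kdm5d, Ddx3y and Eif2s3y, with Pttg1, Wfikkn2 and Serpine3.

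Chromosome 11, which carries Ift20, held 46 called genes among 1005 tested (4.58%), against 2.84% over all chromosomes. Within 5 Mb of Ift20 6 of 112 tested genes were called (5.36%), within 10 Mb 13 of 259 (5.02%) and within 20 Mb 22 of 440 (5%). Cryba1 is among the genes within 5 Mb, and Wfikkn2 among those within 20 Mb. Animals that carry a floxed allele on a mixed background can also carry flanking sequence of its strain of origin, and that was not tested.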

How the data were processed

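The deposited files hold whole-number counts per gene, 1 file per library, made by the authors from 3' end libraries (QuantSeq). The submitters' processing notes name STAR and mm10, with no version or role. For the counting tool, annotation, strand setting and molecular identifiers: not given in the sources used here. A file lists 31053 gene identifiers, of which 31011 matched a symbol in GENCODE M21 (GRCm38), and 5 special entries that stayed out of library sizes and tests. In the 8 P29 libraries, reads assigned to no feature were 20.6% to 21.9% of all entries, reads aligned to several places 31.0% to 32.6% and ambiguous reads 0.279% to 0.294%.

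Labelled genotype and age set the groups. The test was the quasi-likelihood F test of edgeR 4.0.16 under R 4.3.3 (TMM scaling, filterByExpr, robust fit), fitted to all 24 libraries with a mean for each group and adjusted by Benjamini-Hochberg over 12303 genes. Fitting all groups shares 1 estimate of the spread. The contrasts were mutant minus control at each of the ages and the difference of the P29 effect from that at P11 or 3M. CPM values are computed here and scaled by TMM factors, and an SE is the size of a log2 fold change over the root of F. The genes and the 46 lists were chosen with earlier results of these data known. The rule for named genes took Ift20, the 15 largest rises and falls and the 10 smallest p of each direction among called genes of at least 5 CPM whose groups did not overlap, 5 members of each list by p, and 8 genes of each difference between ages. The text leaves some out, mostly those whose calls were lost without a library, and some results are not reported here. Other listed members are named with their values to show what did not pass.

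The test was run on simulated counts of 12303 genes, 200 of them changed, where the P29 contrast recovered 29.9%, 59.7% and 90.9% of genes changed 1.5, 2 and 4-fold, with 8 false calls, and made 0 calls where no gene was changed. Same-numbered control and mutant libraries did not deviate together (correlations -0.02 to 0.01), so no pairing was used. Floors of 3 counts and intervals cover counting error only. Motifs were searched in RefSeq windows of 300 bases. The alternatives tried were DESeq2 1.42.0, its size factors in edgeR, voom of limma 3.58.1 with quality weights, no filter (19634 genes), a minimum of 5 CPM in 4 libraries (11931 genes), fitting the 8 P29 libraries alone, a replicate block, leaving out X and Y genes and leaving out each library in turn.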

Additional observations from a re-analysis of the deposited data

Results flagged for a closer look

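Of 244 groups of 4 P29 libraries checked for a library far from the other 3, 18 had one (7.38%), and chance gives about 1 in 20. Mutant 1 was high for Cryaa (247 CPM), Syt1 (392 CPM), Nefl (25.4 CPM) and summed erythrocyte RNA (4037 CPM). Mutant 3 was high for Crygf (15.8 CPM), Slco1c1 (95.7 CPM) and B2m (808 CPM), and mutant 4 was low for Kcnj13 (478 CPM). Control 2 was low for Sag (1069 CPM) and Crx (83.7 CPM) and high for Jund (299 CPM), Ddx3y (182 CPM), Krt5 (1.2 CPM) and the share of reads aligned to several places (31.9%). Control 3 was low for Rdh5 (3406 CPM) and held the only Bfsp1 count among controls (0.369 CPM). Control 1 was high for Col18a1 (326 CPM) and low for Xist (138 CPM). In each of these genes except Nefl and B2m, the call of mutant against control held with each library left out.

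The genotype effect at P29 differed from that at P11, by the edgeR test of the difference, in the lens genes Cryaa (6.13 on the log2 scale), Cryab (1.23), Cryba1 (6.94), Cryba2 (7.51), Crygd (6.49), Crygs (6.45) and Mip (5.06). It also differed in Mbp (2.49), a myelin gene that was lower in mutants at P11 (181 CPM in controls and 23.5 CPM in mutants) and was not called at P29 (-0.44, adjusted p = 0.230), except when mutant 3 was left out (-0.67).

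From the effect at 3M the P29 effect differed in Aplp1 (-1.81), Fosb (-1.48), Jun (-0.91), Klf4 (-1.73), Rgr (-0.52), Wfikkn2 (-1.12) and Thbs1 (1.10). The difference for Xist was -6.91: the 3M controls averaged 1.2 CPM and the 3M mutants 462 CPM, against 149 and 465 CPM at P29. Sex-linked RNA thus moved with genotype by unequal amounts at the ages compared, and its part in these differences was not tested.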

How the results depend on the processing

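Over the alternatives other than leaving out a library, the count of genes higher in mutants at P29 was 188 to 243 and that of lower genes 129 to 201, against 201 and 149. The P29 effect differed from that at 3M in 168 genes with voom quality weights, against 105, and the cause was not tested. With the replicate number as a block, 190 genes were higher and 145 lower, 307 differed from P11 and 102 from 3M. The numbers share no deviation, so the block is a value only. Leaving out each library gave 163 to 173 higher genes, 109 to 133 lower genes, 239 to 321 that differed from P11 and 95 to 117 that differed from 3M, with fewer samples in each fit. Ift20 ranged from -0.73 to -0.51 in those fits, as given above. No gene examined by name reversed its direction under any alternative run. Of 110 such called genes, 76 kept their calls in all 8 fits that left out a library, and the 34 others lost it in at least 1. Depth limits Bfsp1, Crygf and Krt5 most, with 1, 0 and 3 counts over the 4 control libraries, so their fitted fold changes depend on few counts.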
